A study of Mus musculus with 4 samples.

Results

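The tumor suppressor p53 and 9 genes tied to it were followed through the transcriptomes of 2 bone marrow populations from wild-type (WT) and GRK6-deficient mice. The 10 genes were Trp53, which encodes p53, its inhibitors Mdm2 and Mdm4, and the target genes Ccng1, Bbc3, Pmaip1, Sesn1, Sesn2, Trp53inp1 and Zmat3. They were taken by gene symbol from the 4 deposited tables, out of 12417 genes that any of these tables lists singly. A gene without a row in a table was given an FPKM of 0, where FPKM is a fragment count divided by transcript length and by the number of mapped fragments.

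HSC (hematopoietic stem cells) were sorted by the gate Lin-c-kit+sca-1+ and CLP (common lymphoid progenitors) by Lin-c-kit+sca-1+Il-7Ra+. The bone marrow came from C57BL/6 mice, either WT or GRK6-/- littermates in which a block of exons common to the splice variants is deleted. Each of the 4 libraries, 1 for each genotype in each population, was made from 13 to 15 cells of 3 to 4 mice, amplified cell by cell over 20 and then 10 PCR cycles and pooled. There was 1 library per group and no replicate, so no value below carries a replicate error. Cells, mice and amplification cannot be told apart within a pool.

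p53 is a transcription factor that is kept low by MDM2, a ubiquitin ligase that marks it for degradation, and by MDM4, which covers its activation domain. DNA damage and other stress release p53, which then activates genes for cell cycle arrest, apoptosis and antioxidant defense, and also Mdm2 itself, which closes a feedback loop. Much of p53 activity is set on the protein, which RNA levels do not show. In hematopoietic stem cells p53 is known for restraining proliferation and for removing damaged cells.

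The binding sequence of p53 is shown first for the members where it could be read in the genome, because p53 acts on its direct targets by binding such sites. The window from 5000 bases before to 5000 bases after the annotated start of each protein-coding gene was searched in the mm9 genome for the p53 consensus full site of 20 bases, made of 2 adjacent units of 10 bases without a spacer. At most 1 base outside the consensus was allowed, and the C and G at the core of each unit (4 bases in all, in capitals) were required. The consensus reads the same on both strands, and no other motif was searched. Of the 10 genes, 2 held such a site, Ccng1 and Zmat3, against 384 of 22374 windows over all protein-coding genes (1.72%). An exact match was found in 1 of the 10 genes, Zmat3, and in 39 windows in all (0.174%). The genes were chosen as p53 targets, so this is a description of them. For the other members it is only known that these letters are not in this window. Cdkn1a, the gene of the cell cycle inhibitor p21 and the classical p53 target, is shown for comparison. The sites are written 5′ to 3′ on the strand of the gene.

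Zmat3, intron, 1328 bases after the start, chr3:32263253-32263272, minus strand, exact: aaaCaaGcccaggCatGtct
Zmat3, upstream, position -4492 from the start, chr3:32269073-32269092, minus strand, 1 base outside the consensus: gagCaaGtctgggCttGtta
Ccng1, upstream, position -170 from the start, chr11:40568964-40568983, minus strand, 1 base outside the consensus: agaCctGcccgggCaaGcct
Ccng1, intron, 356 bases after the start, chr11:40568438-40568457, minus strand, 1 base outside the consensus: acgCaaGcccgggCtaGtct
Cdkn1a, upstream, position -51 from the start, chr17:29227873-29227892, plus strand, 1 base outside the consensus: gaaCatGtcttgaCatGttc

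Ccng1 and Zmat3, each with a pair of such sites, were far apart in level: Ccng1 was read in all 4 libraries, while Zmat3 was near the lower limit in HSC and listed at 0 in CLP. The gene annotation deposited with the values put Trp53, Bbc3, Pmaip1, Trp53inp1 and Zmat3 under induction of apoptosis, a term held by 1.11% of the 11755 annotated genes. Trp53, Sesn1, Sesn2 and Trp53inp1 were under cell cycle arrest, held by 0.587%.

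Some facts of the libraries bear on all values. Of the low FPKM values, 70.0% to 80.6% in a library fell on steps of whole fragments, and these steps put the scaling of HSC at about 2950000 (WT) and 3870000 (GRK6-/-) fragments and that of CLP at about 4440000 (WT) and 2780000 (GRK6-/-). Each fragment of a 2 kb transcript then equals 0.113 to 0.180 FPKM. The scaling was picked as the one that best placed the 103 to 160 low values of a library on steps. Their share on steps is therefore no separate check of it. The read number that the paper reports for each lineage is larger than these estimates. Genes abundant in every cell were also listed at 0 at times (Rpl30 in WT CLP, Rps27 in GRK6-/- HSC, each above 100 FPKM in the other libraries), so an FPKM of 0 says only that a gene had no row. Grk6, the targeted gene, had in HSC 42.7 FPKM (WT) and 89.4 FPKM (GRK6-/-), and in CLP 26.9 FPKM (WT) and 57.6 FPKM (GRK6-/-). A value per gene does not tell deleted from remaining exons, so the genotype labels could not be checked with it, and GRK6-/- below means the library labelled so. Il7r, which defines CLP, was at 120 FPKM in WT CLP and 75.1 in GRK6-/- CLP, against 0 and 1.08 in the HSC libraries. Kit was between 26.2 and 81.8 FPKM in all 4. Cd34 had 151 FPKM (WT) and 338 (GRK6-/-) in HSC, and 165 (WT) and 244 (GRK6-/-) in CLP. Flt3 had 54.5 FPKM (WT) and 23.8 (GRK6-/-) in HSC, and 124 (WT) and 219 (GRK6-/-) in CLP. Ly6a, the gene of Sca-1, had no value of its own and was seen only jointly with neighbouring genes, in WT HSC. Erythroid markers (6 of 9 listed had a row) summed in HSC to 38.1 FPKM (WT) and 746 (GRK6-/-), and in CLP to 19.8 (WT) and 17533 (GRK6-/-), with 6 of 6 past the threshold upward in both populations. B lineage markers (7 of 8) summed in HSC to 41.9 (WT) and 35.5 (GRK6-/-), and in CLP to 186 (WT) and 973 (GRK6-/-), where 6 were past the threshold upward and 1, Vpreb2, downward. Proliferation genes (7 of 7) summed in HSC to 379 (WT) and 340 (GRK6-/-), and in CLP to 725 (WT) and 217 (GRK6-/-). Top2a made up most of the difference in CLP, and without it the sums there were 247 (WT) and 180.1 (GRK6-/-). In HSC the sums without Top2a were 212 (WT) and 283 (GRK6-/-), the other direction from the sums with it. There 2 of the 7 were past the threshold upward and 1 downward. In CLP 4 of the 7 were past the threshold downward and 0 upward, and Mki67 and Aurkb had the higher value in GRK6-/- CLP. Granulocyte markers (7 of 7) summed to between 7349 and 16064 FPKM and T lineage markers (4 of 5) to between 20.1 and 39.3. Their part in the results below was not tested. In a pool, fewer cells with a transcript and less of it per cell cannot be told apart.

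Trp53 had the highest level of the 10 genes in every library. It was read at 62.1 FPKM (WT) and 63.1 (GRK6-/-) in HSC, and at 78.4 (WT) and 134 (GRK6-/-) in CLP. The HSC libraries differed by little, and GRK6-/- CLP was the highest. Among the genes with a value in the same library these levels stood at percentiles 86.8 (WT) and 87.7 (GRK6-/-) in HSC and 89.0 (WT) and 93.9 (GRK6-/-) in CLP. The ratio of GRK6-/- to WT was 1.02 in HSC and 1.71 in CLP, or 0.02 and 0.77 as log2 ratios of FPKM + 1. Neither reached the absolute log2 ratio of 1 that was used as the threshold. Trp53 (Entrez Gene 22059, ENSMUSG00000059552.6) is at chr11:69393861-69405375 of mm9, plus strand.

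Mdm2, at once the main inhibitor and a target of p53, was read at 13.5 FPKM (WT) and 14.5 (GRK6-/-) in HSC, and at 13.7 (WT) and 24.9 (GRK6-/-) in CLP. As for Trp53, GRK6-/- CLP was the highest, and the other 3 libraries lay within 13.5 to 14.5 FPKM. The log2 ratio was 0.09 in HSC and 0.81 in CLP, below the threshold in both. In each library Trp53 exceeded Mdm2 in FPKM, by 4.60 times (WT) and 4.35 times (GRK6-/-) in HSC and by 5.72 times (WT) and 5.40 times (GRK6-/-) in CLP. This ratio, which does not depend on the scaling of a library, differed less between genotypes than between populations. Mdm2 (Entrez Gene 17246) is at chr10:117125961-117147772 of mm9, minus strand, in the table of WT HSC.

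Mdm4, the other inhibitor, had a row only in GRK6-/- HSC, at 0.763 FPKM or about 10 fragments of its longest annotated transcript. It was listed at 0 in the other libraries. No fold is given against a value of 0, and none of its comparisons reached the threshold on the scale of FPKM + 1. In GRK6-/- HSC, the library that lists both inhibitors, Mdm2 was at 14.5 FPKM and Mdm4 at 0.763 FPKM, on a scale per length.

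**Figure D1:**
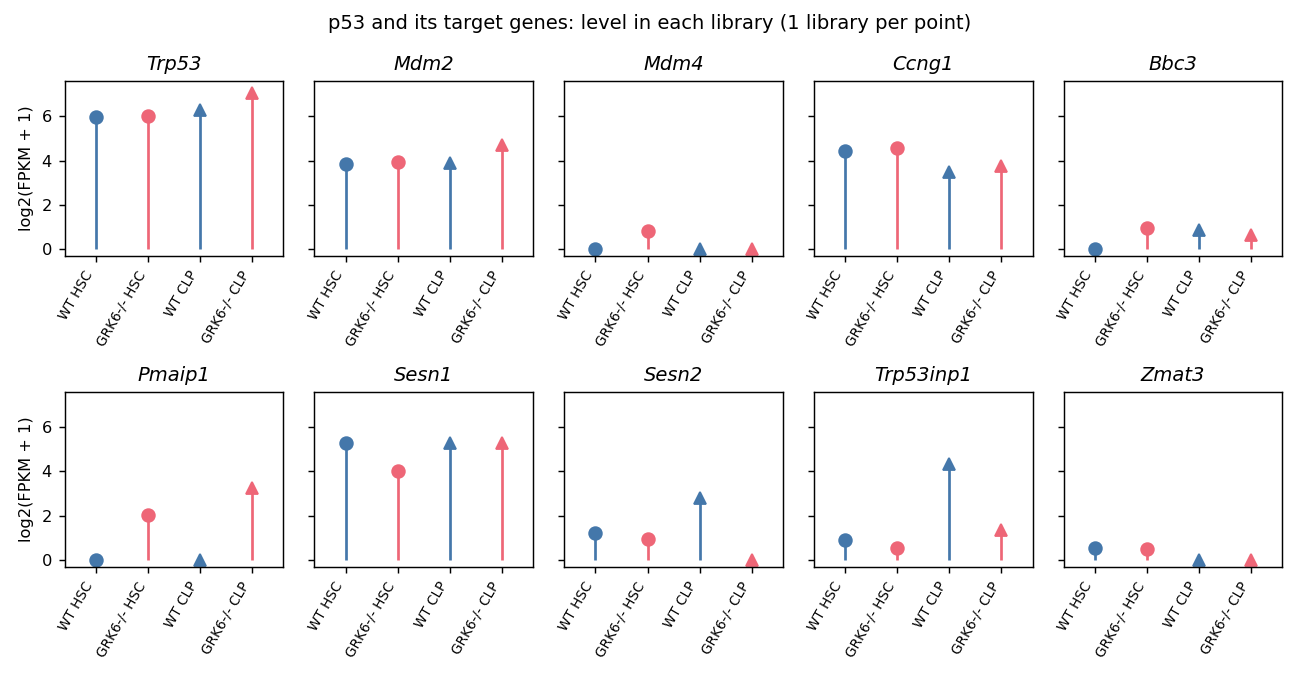
Level of each of the 10 genes as log2(FPKM + 1) on the vertical axis in each of the 4 libraries, with circles for HSC, triangles for CLP, blue for WT and red for GRK6-/-. Each point is 1 library without error. Trp53 is the highest in all 4, Trp53inp1 stands out in WT CLP at 19.0 FPKM, and Pmaip1 is above 0 only in the GRK6-/- libraries.

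Ccng1, which encodes cyclin G1, a partner of the phosphatase that activates MDM2, was read at 20.7 FPKM (WT) and 22.6 (GRK6-/-) in HSC, and at 10.2 (WT) and 12.8 (GRK6-/-) in CLP. Both HSC libraries were above both CLP libraries. The GRK6-/- to WT ratio was 1.09 in HSC and 1.25 in CLP (log2 ratios 0.12 and 0.30), below the threshold in both. The ratio of CLP to HSC was 0.492 in WT and 0.564 in GRK6-/-, with log2 ratios of -0.96 and -0.78 on the FPKM + 1 scale, short of the threshold. Mdm2 was below Ccng1 in HSC (0.653 times in WT and 0.640 in GRK6-/-) and above it in CLP (1.35 and 1.95 times). Ccng1 (Entrez Gene 12450) is at chr11:40562054-40568788 of mm9, minus strand.

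Bbc3 and Pmaip1 encode PUMA and NOXA, BH3-only proteins that bind survival proteins of the BCL2 family and so trigger apoptosis at the mitochondrion. Bbc3 was listed at 0 in WT HSC and read at 0.963 FPKM in GRK6-/- HSC, and in CLP at 0.842 (WT) and 0.568 (GRK6-/-). These values stand for about 7, 7 and 3 fragments, too few to order the 3 libraries. Pmaip1 was listed at 0 in both WT libraries and read at 3.09 FPKM in GRK6-/- HSC and 8.53 in GRK6-/- CLP, about 32 and 63 fragments. It was the only 1 of the 10 genes that passed the threshold upward in HSC and in CLP. Of all genes, 19.3% passed it upward in HSC and 26.6% in CLP, and the share that did so in both was not counted. Passing in both is therefore not read as particular to Pmaip1. Each call also rests on a WT value of 0, which says only that the gene had no row. No fold is given, since the WT values are 0. The summed erythroid markers were also higher in both GRK6-/- libraries, and their part in the Pmaip1 values was not tested. Among genes with a value in GRK6-/- CLP, Pmaip1 stood at percentile 42.2 and Trp53 at percentile 93.9.

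The sestrins are stress proteins that limit reactive oxygen species and restrain mTORC1 through AMPK and amino acid sensing. Sesn1 was read at 37.7 FPKM (WT) and 15.4 (GRK6-/-) in HSC, and at 37.4 (WT) and 37.4 (GRK6-/-) in CLP. GRK6-/- HSC was the low library, at 0.409 times WT HSC (log2 ratio -1.24), and the other 3 were nearly equal. Sesn1 (Entrez Gene 140742) is at chr10:41530380-41628242 of mm9, plus strand, and its values stand for about 189 to 525 fragments.

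Sesn2 was read in HSC at 1.33 FPKM (WT) and 0.898 (GRK6-/-) and in WT CLP at 5.91, and was listed at 0 in GRK6-/- CLP. WT CLP was the high library and the only 1 with more than about 14 fragments. It counts as past the threshold downward in CLP, where no fold is given against 0. The tables give the gene the same end at 132066371 of chromosome 4 but different starts, 132047950 in WT CLP and 132048722 in the HSC libraries, which is the 3′ side of this minus strand gene. The part of this difference in span in the values was not tested. In the 3 libraries with both genes Sesn1 exceeded Sesn2, by 28.4 times (WT) and 17.2 times (GRK6-/-) in HSC and by 6.32 times in WT CLP.

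Trp53inp1, a nuclear stress protein that promotes p53 phosphorylation and autophagy, varied most among the genes read in all 4 libraries. It was read at 0.883 FPKM (WT) and 0.473 (GRK6-/-) in HSC, and at 19.0 (WT) and 1.57 (GRK6-/-) in CLP. WT CLP was 40.2 times above the lowest library. The GRK6-/- value was 0.536 times WT in HSC and 0.0824 times WT in CLP, with log2 ratios of -0.35 and -2.96. About 456 fragments stood behind the value in WT CLP and between 10 and 24 behind each of the others. Trp53inp1 (Entrez Gene 60599) is at chr4:11083588-11101524 of mm9, plus strand.

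Zmat3, which encodes a zinc finger protein that binds RNA and stabilizes some transcripts, was read in HSC at 0.473 FPKM (WT) and 0.422 (GRK6-/-) and was listed at 0 in both CLP libraries. Its longest transcript has 7791 bases, so these low values still stand for about 11 and 13 fragments, and the difference between them was not detectable at this depth.

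Taking the comparison of genotypes in HSC as a group, 2 of the 10 genes were past the threshold, Pmaip1 upward and Sesn1 downward, against 37.4% of the 11624 genes listed in either HSC library. The 6 others read in both HSC libraries had log2 ratios between -0.35 and 0.12, and Mdm4 and Bbc3, listed at 0 in WT HSC, were below the threshold. The median over the 10 genes was 0.06 and over all genes 0.05. The upward share among all genes was 19.3% and the downward share 18.0%. Among genes with a mean of 10 to 100 FPKM, the range that holds Trp53, Mdm2, Ccng1 and Sesn1 in HSC, 35.6% were past the threshold, and among those with a mean of 1 to 10 FPKM, the range of Pmaip1 and Sesn2, 50.8% were.

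In CLP, 8 of the genes had a value, and 3 were past the threshold, Pmaip1 upward and Sesn2 and Trp53inp1 downward, against 50.0% of 11191 genes (26.6% upward and 23.4% downward). Mdm4 and Zmat3 were listed at 0 in both CLP libraries and could not be compared. The median over the 8 genes was 0.15 and over all genes 0.05. Of all genes with a mean of 1 to 10 FPKM in CLP, the range of Pmaip1 and Sesn2, 66.2% were past the threshold, and of those with 10 to 100 FPKM, the range of Trp53inp1, Mdm2, Ccng1 and Sesn1, 48.1% were. Sesn2 and Trp53inp1 were lower, and Pmaip1 higher, in the library in which 4 of 7 proliferation genes were also past the threshold downward, and 6 of 6 erythroid and 6 of 7 B lineage markers upward. The part of these markers in the values of the 3 genes was not tested.

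**Figure D2:**
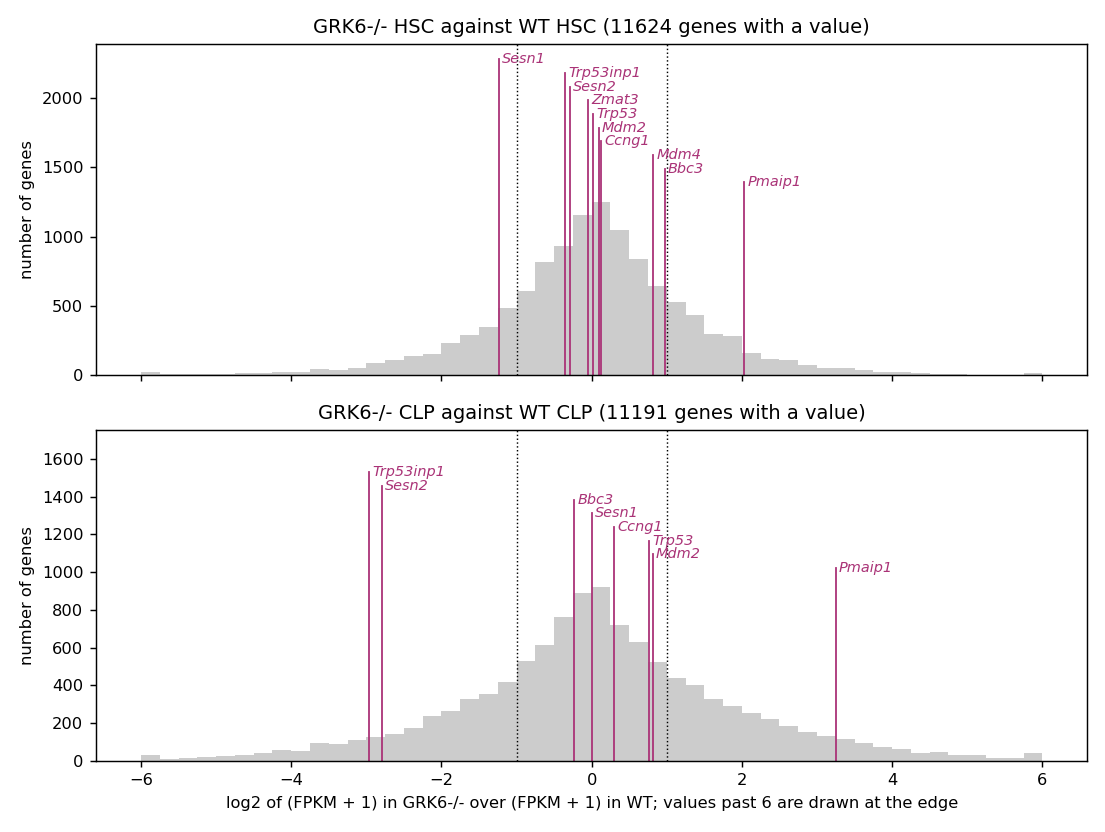
Gray bars count all genes by log2 ratio of FPKM + 1, GRK6-/- over WT, for HSC above and CLP below, with the threshold of 1 in either direction dotted; purple lines mark p53 and its target genes, with heights that only keep the names apart, and genes past 6 are counted in the edge bars. In HSC only Pmaip1 and Sesn1 lie outside the dotted lines, and in CLP Pmaip1, Sesn2 and Trp53inp1 do.

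A fit over all 4 libraries with limma, with population as a covariate and 1 residual degree of freedom per gene, estimated the genotype difference common to HSC and CLP. With 1 library per group, the residual was the disagreement of HSC and CLP over the genotype difference, and not a replicate error. The standard errors also drew on the variance over all genes tested (7.43 prior degrees of freedom). Of 11230 genes with at least 1 FPKM in a library, 0 had an adjusted p-value under 0.05 (0%) and 500 an unadjusted p-value under 0.05. Of the members, 7 could be tested, and the adjusted p was 0.999 for each in limma. For Trp53 the log2 difference was 0.40 with a standard error of 0.93 and a 95% confidence interval of -1.74 to 2.53. For Mdm2 it was 0.45 with a standard error of 0.93 and an interval of -1.68 to 2.59. Pmaip1 was the only member with an unadjusted p under 0.05, and its adjusted p in limma was 0.999. Each interval is wide enough to hold a difference of 1 log2 unit in either direction for Trp53, Mdm2, Ccng1 and, with an interval of -2.79 to 1.55, Sesn1.

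The populations were compared within each genotype, and these comparisons use the same libraries as those of the genotypes. In WT, 2 of 8 genes were past the threshold, against 46.5% of 11202 genes (21.8% higher and 24.7% lower in CLP). Both were higher in CLP, Sesn2 at 4.45 times (log2 ratio 1.57 on the FPKM + 1 scale) and Trp53inp1 at 21.6 times (3.41). In GRK6-/-, 3 of 10 were past it, against 45.6% of 11708 genes (22.3% higher and 23.4% lower in CLP), again all higher in CLP. These were Trp53 at 2.13 times (1.08), Pmaip1 at 2.76 times (1.22) and Sesn1 at 2.42 times (1.22). None of the 10 members was past the threshold in both genotypes, and Pmaip1 and Mdm4, listed at 0 in both WT libraries, could not be. How often this holds over all genes was not counted, so nothing about the members is read from it. In the same limma fit, the difference between populations had adjusted p-values from 0.920 to 0.987 for the 7 genes tested, and 1 of 11230 genes had an adjusted p under 0.05 (0.0089%), with 608 at an unadjusted p under 0.05. Trp53inp1 had the largest difference of the 7, with a log2 value of 2.11 and a standard error of 1.03 (limma, adjusted p = 0.920).

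**Figure D3:**
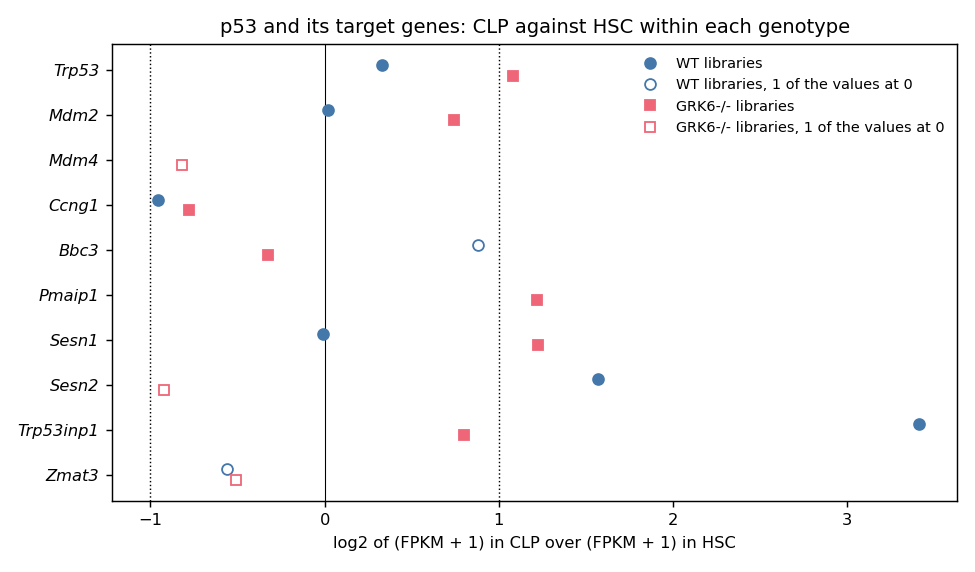
Horizontal axis: log2 of (FPKM + 1) in CLP over (FPKM + 1) in HSC for each of the 10 genes, with circles for the WT and squares for the GRK6-/- libraries, open where 1 of the values is 0. Dotted lines mark the threshold of 1; Trp53inp1 and Sesn2 pass it in WT, and Trp53, Pmaip1 and Sesn1 in GRK6-/-.

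The order of the levels was the same at the top in all libraries, with Trp53 first, but differed below. Sesn1 was second in WT HSC, WT CLP and GRK6-/- CLP and came after Ccng1 in GRK6-/- HSC. In WT CLP, Trp53inp1 was above Mdm2 and Ccng1, and it was below both in the other libraries. Without replicates, neighbours in the order cannot be said to differ.

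The genes whose level was closest to that of Trp53 across the 4 libraries, by the largest absolute difference in log2(FPKM + 1), were 1110004F10Rik (0.13), Ergic3 (0.19) and Serhl (0.23). For Mdm2 they were Pla2g16 (0.25), Rrp36 (0.29) and Prc1 (0.29). Likeness over 4 libraries is a description only.

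Beyond the 10 genes, 37 other p53 targets were listed, of which 31 had a row of their own in at least 1 library. In HSC 29 had a value, with 3 past the threshold upward and 5 downward, or 27.6% against 37.4% of all genes, and a median log2 ratio of -0.20 against 0.05. Higher in GRK6-/- HSC were Steap3, a ferrireductase (3.06 against 9.81 FPKM in WT and GRK6-/-), Dram1, a lysosomal protein of autophagy (3.75 against 11.5), and Pidd1 (Lrdd in the tables), a death domain protein that activates caspase-2 (2.17 against 6.99). Lower were Ddb2, which recognizes ultraviolet damage (23.1 against 5.76), Apaf1, the core of the apoptosome (18.2 against 5.33), Bax, the pore former of the mitochondrial outer membrane (29.0 against 13.0), and Ddit4, an mTORC1 inhibitor (1.53 against 0.164). Fas, the death receptor, had 2.01 FPKM in WT HSC and was listed at 0 in GRK6-/- HSC. Genes of apoptosis thus stood on both sides.

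In CLP 29 of these targets had a value, with 6 past the threshold upward and 9 downward, or 51.7% against 50.0% of all genes, and a median log2 ratio of -0.26 against 0.05. Higher in GRK6-/- CLP were Gadd45a, a stress sensor of growth arrest (0.414 against 19.5 FPKM), Pidd1 (1.35 against 18.7) and Cdkn1a (22.9 against 93.8). Phlda3, an inhibitor of AKT, and the death receptor gene Tnfrsf10b were listed at 0 in WT CLP and read at 17.7 and 3.35 FPKM in GRK6-/- CLP. Lower were Psrc1, a spindle protein (29.6 against 2.40), Fdxr, a mitochondrial reductase (8.77 against 0.404), and Gtse1, which is expressed in G2 and S phase (17.5 against 3.52), while Plk2 had 15.8 FPKM in WT CLP and was listed at 0 in GRK6-/- CLP. Psrc1 and Gtse1 are also cell cycle genes. Of the 7 proliferation genes 4 were past the threshold downward in the same library, while Mki67, Aurkb and Ccna2 were not. The part of proliferation in the Psrc1 and Gtse1 values was not tested. In HSC, Cdkn1a had 17.7 FPKM in WT and 8.57 in GRK6-/-, a log2 ratio of -0.96 that was short of the threshold, so the sign differed from that in CLP. Pidd1 was past the threshold upward in both populations, and Ddit4 downward in both, with 4.31 FPKM in WT CLP and 0.678 in GRK6-/- CLP. The share of all genes past it in the same direction in both was not counted.

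**Figure D4:**
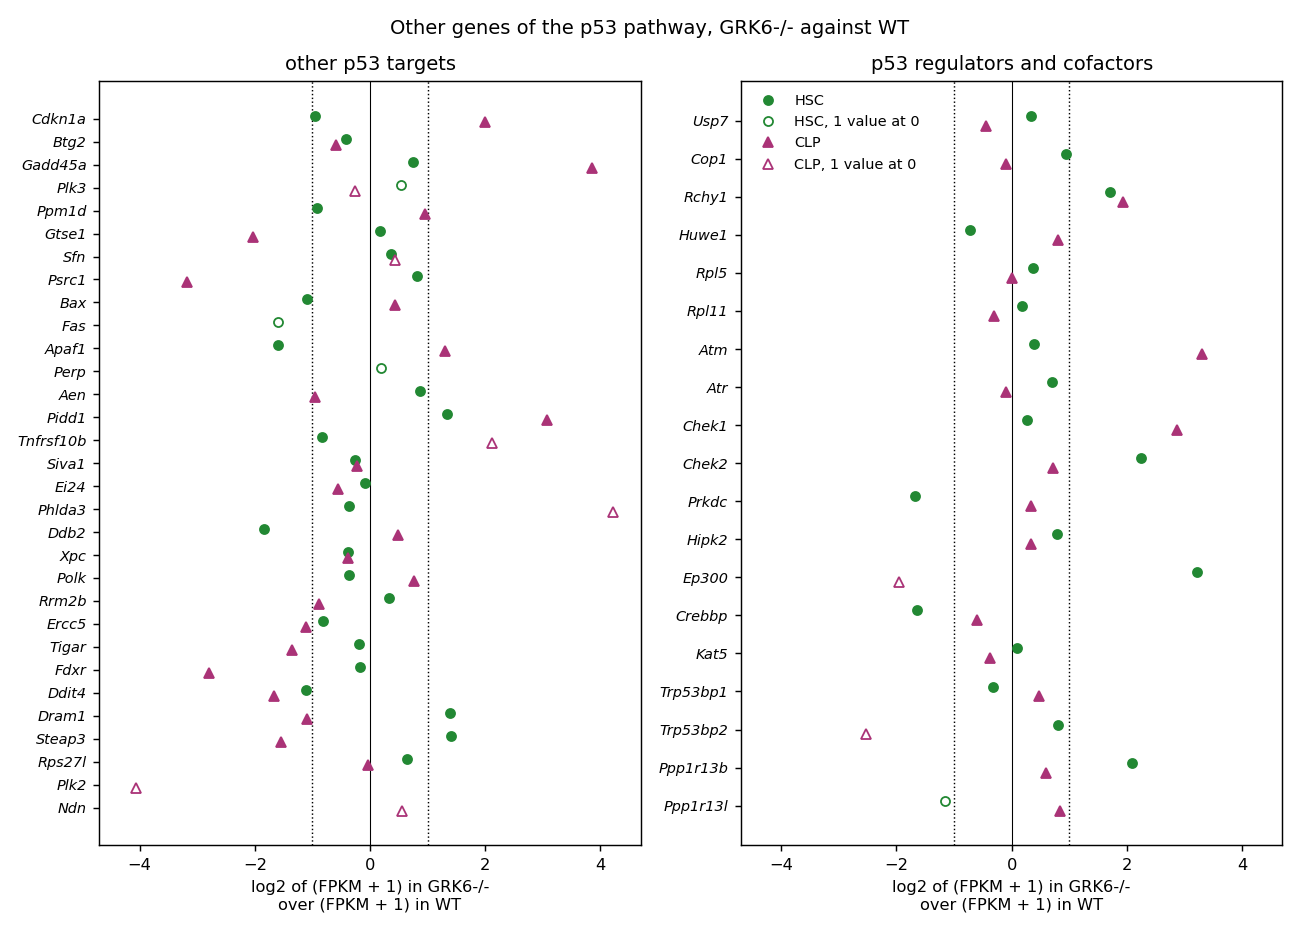
Horizontal axis: log2 ratio of FPKM + 1, GRK6-/- over WT for other p53 targets (left) and for regulators and cofactors of p53 (right), with green circles for HSC and purple triangles for CLP, open where 1 of the values is 0. Dotted lines mark the threshold of 1, which 8 targets and 7 regulators pass in HSC and 15 and 5 in CLP.

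Of 20 regulators and cofactors of p53, 19 had a value in each population. In HSC 4 were past the threshold upward and 3 downward (36.8% against 37.4% of all genes), with a median log2 ratio of 0.37. Higher in GRK6-/- HSC were the acetyltransferase gene Ep300 (0.269 against 10.8 FPKM), the checkpoint kinase gene Chek2 (14.1 against 70.7), Ppp1r13b, which encodes the p53 partner ASPP1 (9.10 against 41.9), and Rchy1, a ubiquitin ligase of p53 (10.8 against 37.5). Lower were Prkdc, which encodes DNA-PKcs (7.33 against 1.60), and Crebbp (4.85 against 0.875), and Ppp1r13l had 1.23 FPKM in WT HSC and was listed at 0 in GRK6-/- HSC.

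In CLP 3 of the regulators were past the threshold upward and 2 downward (26.3% against 50.0% of all genes), with a median log2 ratio of 0.33. Higher in GRK6-/- CLP were the kinase genes Atm (3.59 against 44.3 FPKM) and Chek1 (0.335 against 8.78), and Rchy1 (17.5 against 69.3). Trp53bp2 and Ep300 had 4.79 and 2.89 FPKM in WT CLP and were listed at 0 in GRK6-/- CLP. Rchy1 was past the threshold upward in both populations, and the share of all genes that were was not counted. Cdkn2a, whose product ARF blocks MDM2, had no row in any library. Rpl5 and Rpl11, ribosomal proteins that bind MDM2, had log2 ratios between -0.30 and 0.37.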

How the data were processed

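RNA of 4 pooled cDNA libraries was analysed, 1 for each genotype in HSC and in CLP. The submitters' processing notes name TopHat 1.4.0 and mm9, and the FPKM deposited by the authors for each gene were computed with the Tuxedo suite. The version of the quantification tool, the annotation and any filter are not given in the sources used here. The FPKM values are already scaled by length and mapped fragments and carry no counts or bounds.

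Rows of a symbol were summed, 333 of 12750 symbols named in rows with several genes were left out (none of the 10 genes was among them), and log2 ratios of FPKM + 1 were computed, with an absolute value of 1 as the threshold, which the study also used, together with a p-value. Values in the files start at 0-based positions and are printed from 1. The genome and annotation searched were NCBIM37 (mm9) with GENCODE vM1. Fragments behind a value were estimated from the longest coding transcript and from the depth at which low values (under 0.3 FPKM, transcripts of at least 1500 bases) fell on 1, 2 or 3 fragments, which 70.0% to 80.6% did. They are estimates of reads after PCR and not of molecules.

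The members and the lists were chosen with earlier results of these data known. The lists of targets, regulators and markers were written from general knowledge. Genes of the lists were named by rule, as the 4 largest rises and falls past the threshold with at least 1 FPKM. Cdkn1a was also fixed, while Bax, Rpl5, Rpl11 and Cdkn2a, and Ddit4 in CLP, were named after their values were seen. The common differences were tested with limma 3.58.1 in R 4.3.3 on log2(FPKM + 1), adjusted by Benjamini-Hochberg over all genes. Other steps used Python 3.11.15, pandas 2.3.3 and numpy 2.4.6, and figures matplotlib 3.10.9. The scripts were tested on simulated data, where the depth estimate came out somewhat low. Alternatives were a pseudocount of 0.1, filters at 1 FPKM, rescaling so that the median log2 ratio was 0, use of only the highest row of a symbol and a threshold of 2.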

Additional observations from a re-analysis of the deposited data

Results flagged for a closer look

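Of the 54 listed genes (members, other p53 targets and regulators) with a value in both populations, 4 were past the threshold in opposite directions in HSC and CLP, which is what singled them out. Apaf1 had a log2 ratio of GRK6-/- over WT of -1.60 in HSC and 1.30 in CLP. Dram1 had 1.39 in HSC and -1.10 in CLP. Steap3 had 1.41 in HSC and -1.55 in CLP. Ep300 had in HSC 0.269 FPKM (WT) and 10.8 FPKM (GRK6-/-), and in CLP 2.89 FPKM (WT) and a listing at 0 (GRK6-/-). These are 7.41% of the 54 genes, against 10.8% (1119 of 10398) of all genes with a value in both populations. Among genes with a value in all 4 libraries they were 3 of 44 (6.82%), against 741 of 8246 (8.99%). Whether HSC and CLP differ in these genes was not tested, there being no replicates. None of the 8 members with a value in both populations was past the threshold in opposite directions.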

How the results depend on the processing

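Rescaling so that the median log2 ratio was 0, use of only the highest row of a symbol and a filter of at least 1 FPKM in 1 of the libraries left the counts of genes past the threshold within 1.5 times for the members, the other targets and the regulators. With a pseudocount of 0.1, the members past the threshold became 4 of 10 in HSC, and the other targets 13 of 29 in HSC. For CLP against HSC the members became 5 of 8 in WT and 7 of 10 in GRK6-/-. A smaller pseudocount gives low values more weight, and the share of all genes rose too, to 49.8% in HSC. For CLP against HSC that share was 56.8% in WT and 56.9% in GRK6-/-, and the members were then above it. With at least 1 FPKM in both libraries compared, 1 of 4 members remained past the threshold in HSC (Sesn1). In CLP 1 of 5 did (Trp53inp1). For CLP against HSC, 1 of 5 remained in WT (Sesn2) and 3 of 5 in GRK6-/-. Genes under 1 FPKM in either library, among them Trp53inp1 in WT HSC, are then left out. The shares of all genes were 32.0% in HSC and 40.5% in CLP, and for CLP against HSC 39.0% (WT) and 38.6% (GRK6-/-). The other targets came to 8 of 18 in CLP and the regulators to 4 of 16 in HSC and 2 of 16 in CLP. At an absolute log2 ratio of at least 2, the members came to 1 of 10 in HSC and 3 of 8 in CLP. Of all genes, 12.4% and 24.8% passed there. For CLP against HSC the members came to 1 of 8 in WT and 0 of 10 in GRK6-/-, against 20.5% and 19.1% of all genes. The other targets came to 0 of 29 in HSC and 8 of 29 in CLP, and the regulators to 3 of 19 in each population. The population difference in limma had 1 gene under an adjusted p of 0.05 and 0 with a pseudocount of 0.1, without the filter or with at least 1 FPKM in all 4 libraries. No direction of a member past the threshold turned under any of these alternatives. Leaving out a library was not possible, because each group had 1 and the limma fit would have had no residual degree of freedom. The comparisons of genotypes in HSC and of populations in WT do not use GRK6-/- CLP, the library with the highest erythroid and B lineage sums. The erythroid sums also differed between the HSC libraries, at 38.1 FPKM (WT) and 746 FPKM (GRK6-/-), and their part was not tested. No paired analysis was possible because the labels carry no replicate numbers. Depth limits Mdm4, Bbc3, Zmat3 and Sesn2, with about 14 fragments or fewer outside WT CLP.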
